A study of Mus musculus with 20 samples.

Results

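Vnn1 encodes vanin 1, a pantetheinase, and its transcript was followed here in the prostate of 5 inbred mouse strains. The gene was represented by every array element whose only gene symbol was Vnn1. The gene was chosen by its measured strain means, low in 3 strains and high in 2. The rule gave 1 element of the 11552 on the array (element 8473, NCBI gene 22361, on chromosome 10), and it had a value on all 20 arrays. The array carried cDNA clones printed on glass, and each array compared a prostate sample with a common reference through 2 fluorescent dyes, Cy5 and Cy3. Each value is a log2 ratio of sample over reference, so a value of 0 means the level of the reference.

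The groups were prostates of BALB/c, FVB/NJ, DBA/2, C57BL/6J and 129X1/SvJ mice, aged 8 to 9 weeks and not treated. The series' design text gives the BALB/c and DBA/2 mice more fully as BALB/cAnCrl and DBA/2NCrl, and the study's methods spell the first BALB/cAnNCrl. Each strain contributed 4 pools of 3 different mice, 60 mice in all, and each pool combined RNA from the dorsal, lateral, ventral and anterior lobes before amplification. The reference was an equal mixture of RNA from the samples of all strains, so that a gene high in some strains lies above 0 there and below 0 in the others. In each strain 2 pools carried Cy5 and 2 carried Cy3. Of the 11552 elements, 11159 had enough values to be tested. They stood for 5820 named genes.

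Pantetheinases are enzymes held on the outer face of the cell membrane by a lipid anchor. They split pantetheine, a breakdown product of coenzyme A, into pantothenate (vitamin B5, from which coenzyme A is rebuilt) and the aminothiol cysteamine, a source of taurine. In mouse liver, Vnn1 is a known target of the fatty acid receptor PPAR alpha, and it is also known in kidney and intestine for its part in responses to oxidative stress and inflammation. Vnn3, the other vanin gene of the mouse, is the nearest gene on one side of Vnn1 in the order of the reference gene table and was not measured here by an element of its own. Whether the Vnn1 element also took up Vnn3 transcripts was not tested, so every ratio given for Vnn1 is that of what its element bound.

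Vnn1 lay at or above the reference in BALB/c and FVB/NJ prostates and far below it in the other 3 strains. The 4 BALB/c pools had log2 ratios of 0.98, 0.83, 1.75 and 1.95. The 4 FVB/NJ pools had log2 ratios of 1.30, 0.82, -0.06 and 1.68. All of these pools but FVB/NJ pool 3, which sat at the level of the reference, were above 0. In DBA/2, the log2 ratios were -2.40, -2.68, -2.31 and -2.74. C57BL/6J pools had -2.61, -2.62, -2.47 and -3.31. The 129X1/SvJ pools had -3.28, -3.27, -3.29 and -2.44. None of these 12 pools overlapped with the 8 pools of BALB/c and FVB/NJ.

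**Figure D1:**
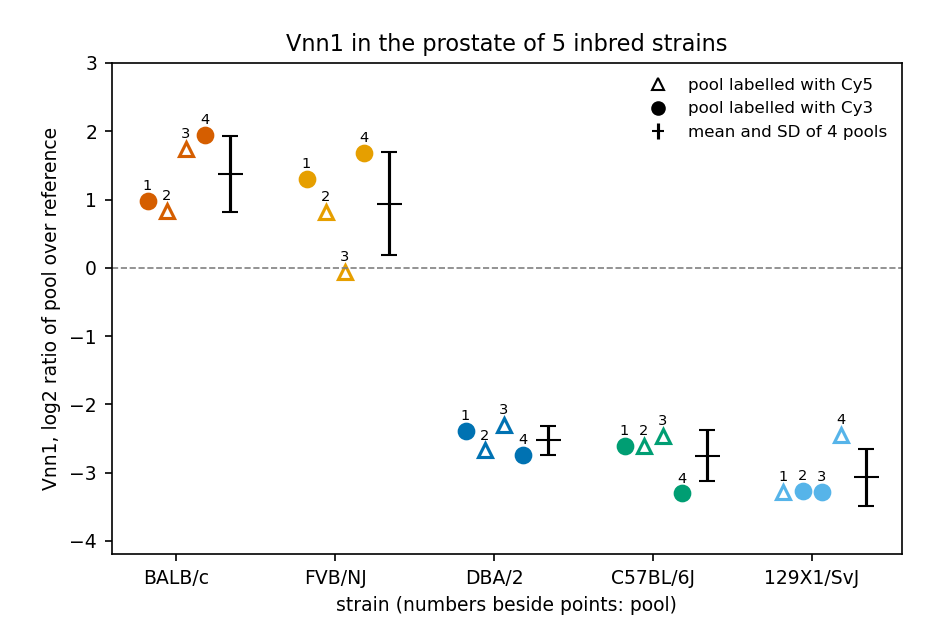
Log2 ratio of Vnn1, pool over common reference, for each of the 4 pools of 5 strains, with open triangles for pools labelled with Cy5, filled circles for pools labelled with Cy3, and a bar for the mean and SD of the 4 pools. The 8 BALB/c and FVB/NJ pools lie between -0.06 and 1.95 and the 12 pools of DBA/2, C57BL/6J and 129X1/SvJ between -3.31 and -2.31, with no pool in between.

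As strain means, Vnn1 stood at 1.37 ± 0.56 in BALB/c, 0.94 ± 0.75 in FVB/NJ, -2.53 ± 0.21 in DBA/2, -2.75 ± 0.38 in C57BL/6J and -3.07 ± 0.42 in 129X1/SvJ (log2 ratio, SD, n = 4 pools each). On a linear scale this was 2.59-fold above the reference in BALB/c and 1.91-fold above it in FVB/NJ. It was 5.77-fold below the reference in DBA/2, 6.73-fold below in C57BL/6J and 8.40-fold below in 129X1/SvJ. Because Vnn1 was chosen for its strain pattern, these levels are a description and were given no test. In RNA from whole tissue, fewer cells of a type and less RNA per cell cannot be told apart.

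Across the gap, the differences between strain means were 3.46 or more on the log2 scale. BALB/c exceeded DBA/2 by 3.90 (15.0-fold), C57BL/6J by 4.13 (17.5-fold) and 129X1/SvJ by 4.45 (21.8-fold). FVB/NJ exceeded DBA/2 by 3.46 (11.0-fold), C57BL/6J by 3.69 (12.9-fold) and 129X1/SvJ by 4.01 (16.1-fold). Even the closest pools on the 2 sides, FVB/NJ pool 3 and DBA/2 pool 3, differed by 2.24 (4.73-fold).

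On either side of the gap the strains were close. BALB/c exceeded FVB/NJ by 0.44 (1.36-fold), which is less than the SD of either strain, and their pools overlapped. DBA/2 exceeded C57BL/6J by 0.22 (1.17-fold) and 129X1/SvJ by 0.54 (1.46-fold), and C57BL/6J exceeded 129X1/SvJ by 0.32 (1.25-fold). The pools of each of these 3 pairs overlapped, so neither neighbours among the 3 low strains nor the 2 high strains were set apart by the spread of their pools. The order of the 3 low strains also changed with scaling. With the arrays scaled to one spread, DBA/2 was lowest at -3.11, C57BL/6J lay at -2.82 and 129X1/SvJ was highest of the 3 at -2.18. With quantile normalization, the means were -2.63 in DBA/2, -2.80 in C57BL/6J and -1.92 in 129X1/SvJ. BALB/c and FVB/NJ remained the 2 highest strains under both, at 1.53 and 1.02 after scaling and at 1.65 and 1.39 after quantile normalization.

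The span between the highest and lowest strain means, 4.45, ranked 13th among the 11159 elements tested and 7th among the named genes, against a median span of 0.32 over all elements. Vnn1 also varied more than most genes between pools of one strain. Its SD within strains was 0.50, against a median of 0.22 over elements, and 94.8% of elements had a lower one. The span was 8.93 times the SD within strains. The pools of DBA/2 were closest together, within 0.43, and those of FVB/NJ farthest apart, over 1.75. In 129X1/SvJ, 3 pools lay within 0.02 of each other and pool 4 was 0.82 above them, among the values of DBA/2 and C57BL/6J. Spot intensities were not used here, so it is not known how close the lowest ratios were to the background of the arrays.

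The dye that labelled a sample was balanced within each strain and gives a view of Vnn1 that does not depend on the strain pattern. Pools labelled with Cy5 differed from pools labelled with Cy3 by -0.08 (SE 0.21, adjusted p = 0.828 from limma with a term for strain), where 15.9% of all elements had an adjusted p under 0.05. The sign of this small difference was not stable: it was 0.058 without FVB/NJ pool 3 and 0.023 without FVB/NJ pool 4. By strain, the Cy5 minus Cy3 difference was -0.18 in BALB/c, -1.12 in FVB/NJ, 0.08 in DBA/2, 0.42 in C57BL/6J and 0.41 in 129X1/SvJ, with 2 pools per dye. FVB/NJ was the strain whose dyes did not overlap, with 0.82 and -0.06 in Cy5 and 1.30 and 1.68 in Cy3. The dye differences were not found to differ between strains (interaction test, unadjusted p = 0.086, adjusted p = 0.812, with 0.457% of elements called). With 2 pools per dye in each strain, this does not show that they were alike.

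Since the closest pools of the 2 sides were 2.24 apart over all pools, the pools of each dye had to be apart too. The ranges within each dye are thus a description and no further support. Among Cy5 pools, the BALB/c pools spanned 0.83 to 1.75 and the FVB/NJ pools -0.06 to 0.82, and the highest pool of another strain was at -2.31, in DBA/2. Among Cy3 pools, BALB/c spanned 0.98 to 1.95 and FVB/NJ 1.30 to 1.68, and the highest pool of another strain was at -2.40, again in DBA/2. The order of the 2 high strains was not the same in both dyes. In Cy5 pools BALB/c averaged 1.29 and FVB/NJ 0.38, whereas in Cy3 pools BALB/c averaged 1.46 and FVB/NJ 1.49.

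Few elements parted the strains in the way that Vnn1 did. All 8 pools of BALB/c and FVB/NJ lay above all 12 others for 8 elements, Vnn1 included, which is 0.0717% of those tested. The named genes among the other 7 were Ift46, Pan3, Vegfd, Nedd4l, Hadhb and 1600014C10Rik. For each of them the closest pools of the 2 sides were 0.19 apart or less, against 2.24 for Vnn1. Different elements of one gene did not always share the pattern: the Pan3 element with separated pools had a Pearson r with Vnn1 of 0.88, and the other 2 Pan3 elements had 0.31 and -0.25. The second elements of Vegfd (r = 0.71) and 1600014C10Rik (r = 0.58) had pools that overlapped. The mirror image, with all 8 pools below all 12 others, was found for 12 elements, or 0.108%. These stood for 9 named genes (Ms4a5 with 2 elements, Sprr2a1, Pop4, C1ra, Mrpl16, Srpx, Upk1b, Ablim1 and Itpripl2) and 2 elements with no single symbol. The other elements of Upk1b, Ablim1 and Itpripl2 did not show it, with r of -0.81 for Upk1b, 0.20 for Ablim1 and 0.03 and -0.46 for Itpripl2.

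The genes most like and most unlike Vnn1 were taken by Pearson r over the 20 pools, among the 1292 named genes whose strain means spanned at least 0.5. The pools share the common reference, their strain and 1 of 2 dyes, so each r is a description and not a test. Over these genes r had a 5th percentile of -0.53 and a 95th percentile of 0.54. The 10 most like were Nedd4l (0.87), Vegfd (0.85), Kdelr3 (0.84), Cables1 (0.81), Ift46 (0.79), Pdrg1 (0.78), Tshz2 (0.78), Syvn1 (0.77), Smpd1 (0.76) and Tent5c (0.75). The 10 most unlike were Ms4a5 (-0.92), Sprr2a1 (-0.89), Pop4 (-0.88), C1ra (-0.88), Mrpl16 (-0.83), Upk1b (-0.81), Srpx (-0.79), Nsmce3 (-0.79), Azgp1 (-0.76) and Proc (-0.72). Of the first set 3 and of the second 7 had pools that did not overlap across the gap. The ranking depended on the measure. By Spearman correlation, strain means, Cy3 pools alone or Cy5 pools alone, 4 to 6 of the 10 most like and 5 to 7 of the 10 most unlike stayed among the first 10. Nedd4l and Syvn1 stayed under all 4 of these measures, as did Ms4a5, Sprr2a1 and Mrpl16.

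Ms4a5, a member of the membrane-spanning family to which the B cell antigen CD20 belongs, ran most closely against Vnn1. Its log2 ratios were -0.96, -1.44, -1.63 and -2.31 in BALB/c and -1.79, -2.28, -1.03 and -2.21 in FVB/NJ. They were -0.34, -0.04, 0.21 and 0.04 in DBA/2, 0.27, -0.20, 0.20 and 0.08 in C57BL/6J, and 1.09, 0.96, 0.54 and 1.30 in 129X1/SvJ. All 8 pools in which Vnn1 was high were thus below every pool in which it was low. The highest values were in 129X1/SvJ, where the mean of Vnn1 was lowest in the values as deposited but not after scaling or quantile normalization. The second Ms4a5 element gave r = -0.95. Within strains, too, the 2 elements ran against Vnn1, with r of -0.48 and -0.53 for the deviations of the 20 pools from their strain means.

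Sprr2a1 belongs to the small proline-rich proteins, precursors of the cornified envelope of squamous epithelium, and has close copies that a cDNA element may not tell apart. Its log2 ratios were -2.19, -1.75, -2.29 and -2.28 in BALB/c and -1.92, -1.36, -1.58 and -1.85 in FVB/NJ. They were 0.22, 0.44, -0.33 and 0.32 in DBA/2, 1.27, 1.02, 1.51 and 0.67 in C57BL/6J, and 0.63, -0.26, -0.30 and -0.59 in 129X1/SvJ. The closest pools of the 2 sides were 0.76 apart. Its highest strain was C57BL/6J. Since the order of the low strains in Vnn1 changed with scaling, whether Sprr2a1 ran against Vnn1 among them was not judged.

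Other genes that ran against Vnn1 had smaller differences. Pop4, a protein subunit of ribonuclease P, was between -0.94 and -0.42 in the 8 BALB/c and FVB/NJ pools and between -0.12 and 1.00 in the 12 others. C1ra, a protease of the first complement component, was between -0.78 and -0.25 in those 8 pools and between -0.23 and 0.63 in the 12 others. Upk1b, a uroplakin of the urothelium, had its lowest mean in FVB/NJ and its highest in C57BL/6J. Its second element had a like r, but its pools overlapped between the 2 sides. Azgp1, which encodes the secreted zinc-alpha-2-glycoprotein, overlapped between the 2 sides, since DBA/2 pool 1 was at -1.12.

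Nedd4l, a ubiquitin ligase that acts on ion channels of epithelial membranes, had the highest r with Vnn1 among the genes taken by 1 element each. The separated Pan3 element, not the one that stood for its gene, had 0.88. The log2 ratios of Nedd4l were 0.31, 0.08, 0.40 and 0.52 in BALB/c and 0.48, 0.45, 0.44 and 0.52 in FVB/NJ. They were -0.14, -0.32, -0.59 and 0.02 in DBA/2, -0.06, -0.04, -0.24 and -0.30 in C57BL/6J, and -0.59, -0.59, -0.06 and -0.38 in 129X1/SvJ. The pools of the 2 sides did not overlap, but the span of the strain means was 0.88, or 1.84-fold, against 21.8-fold for Vnn1. Vegfd, a growth factor of lymphatic vessels, was between 0.00 and 0.44 in the 8 BALB/c and FVB/NJ pools and between -0.37 and -0.04 in the 12 others, and its second element gave r = 0.71.

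Kdelr3, which returns proteins to the endoplasmic reticulum, and Syvn1, a ubiquitin ligase of the same compartment, overlapped between the 2 sides. DBA/2 pool 4 had a Kdelr3 value of 0.36 and C57BL/6J pool 3 a Syvn1 value of 0.41, both above some BALB/c pools. The 8 of the 10 most like genes other than Tshz2 and Smpd1 had spans of at most 1.84-fold. Tshz2 and Smpd1 spanned 45.5-fold and 39.0-fold, and they followed the seminal vesicle gene Svs2 rather than Vnn1 in the pools where the 2 disagreed: in FVB/NJ pool 2 Tshz2 was at -3.60 and Smpd1 at -3.89, and in 129X1/SvJ pool 2 they were at -0.88 and -0.85. The other 2 Tshz2 elements gave r with Vnn1 of 0.32 and 0.22. The Smpd1 element, 8773, is next by number to element 8774 of Svs5, another seminal vesicle gene. In BALB/c, Smpd1 was at 2.25, 1.61, 1.19 and 1.93 and Svs5 at 2.11, 1.71, 1.23 and 1.94. Whether the Smpd1 element measured Smpd1 alone was not tested.

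**Figure D2:**
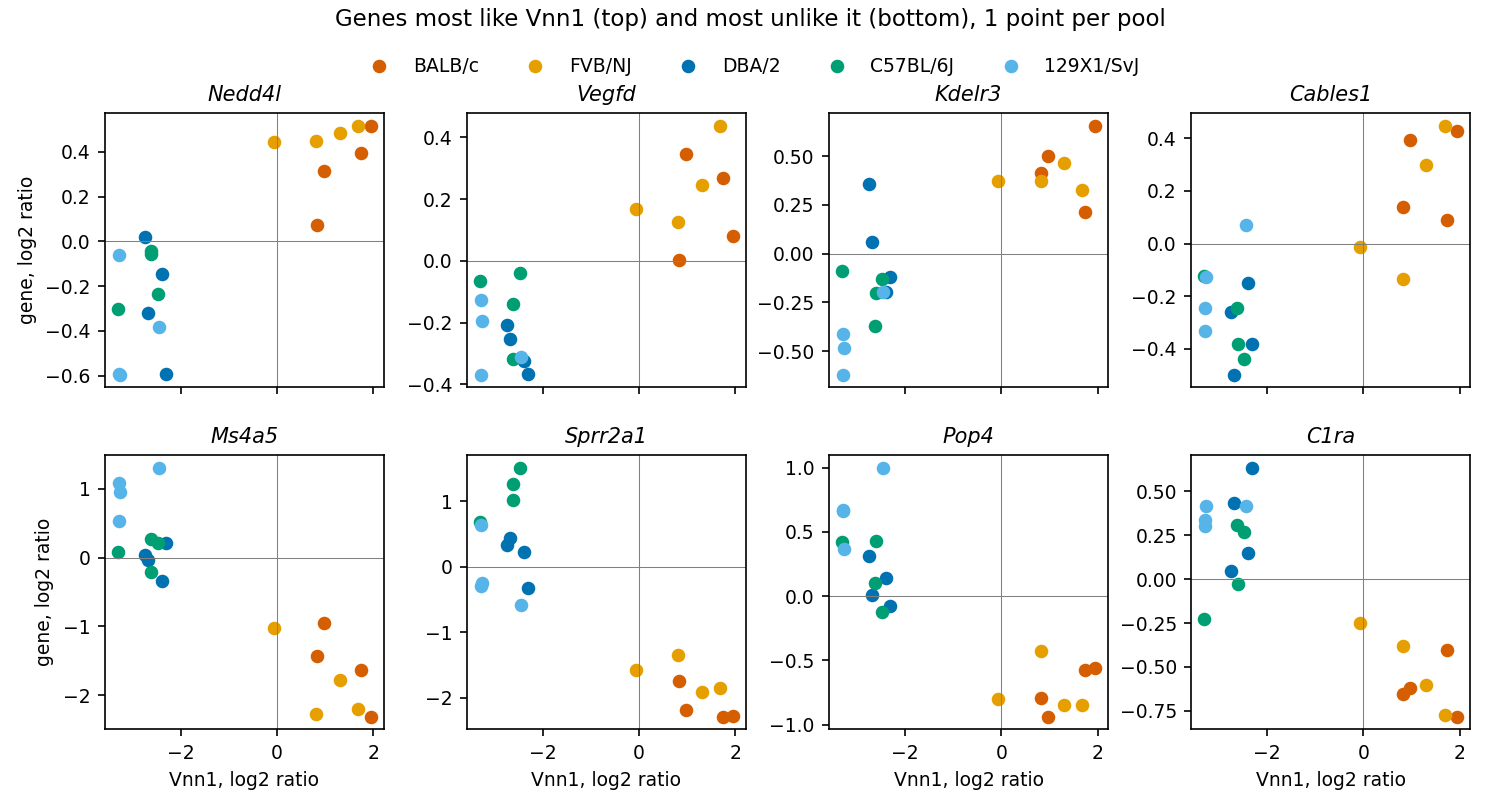
Log2 ratios of 4 of the genes most like Vnn1 (top row) and 4 of those most unlike it (bottom row), plotted against the log2 ratio of Vnn1, with 1 point for each of the 20 pools coloured by strain. Nedd4l (r = 0.87) and Vegfd (0.85) are above 0 or at it in all BALB/c and FVB/NJ pools, and Ms4a5 (-0.92) and Sprr2a1 (-0.89) are lowest in the same 8 pools. The vertical scales differ between panels.

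Within strains, other genes had the highest and lowest correlations with Vnn1, again as a description. By the correlation of deviations from the strain means, the 5 highest were Orc4 (0.70), Timm10 (0.63), H3c7 (0.60), Pate9 (0.60) and Tulp2 (0.60), and the 5 lowest were Tmed3 (-0.79), H2-Eb1 (-0.65), Lpp (-0.63), Ncoa4 (-0.63) and Fn1 (-0.62). The 1292 genes had a 5th percentile of -0.39 and a 95th percentile of 0.37 on this measure. None of these 10 was among the 20 genes named for their r over all pools. Second elements of some of these genes had like values and those of others did not: Tmed3, a carrier of cargo out of the endoplasmic reticulum, had -0.70, Ncoa4, a receptor for the breakdown of ferritin, -0.72, and fibronectin Fn1 -0.55, whereas the other elements of Orc4 had 0.02 each and that of Lpp -0.12. The other 6 Pate9 elements lay between -0.24 and 0.10. In 129X1/SvJ, Vnn1 was highest in pool 4, at -2.44. That pool was also the highest of its strain for Timm10 (0.96), H3c7 (1.15), Pate9 (0.78) and Tulp2 (-1.10). It was the lowest for Tmed3 (-0.58), H2-Eb1 (-0.14), Lpp (-0.37), Ncoa4 (-1.62) and Fn1 (-0.75). Orc4 was instead highest in pool 2 of that strain, at -0.29. How far each r rested on pool 4 was not tested.

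Genes known as markers of the seminal vesicle, an organ next to the prostate, moved with part of this pattern. Whether their RNA came from that organ or from the prostate was not tested. Of 7 measured seminal vesicle markers, 3 passed the test over the 5 strains (moderated F test, adjusted p of at most 0.1, passed by 11.3% of all elements): Svs2 and Svs5, proteins of the copulatory plug, and Pate4. All 3 were higher in BALB/c than the average of the other strains, a direction shown by 0.914% of elements at an adjusted p under 0.05. The mean log2 ratio over the 7 markers ranged from 0.44 to 1.11 in BALB/c pools, from -3.07 to -0.47 in FVB/NJ, from -2.76 to -2.22 in DBA/2, from -3.11 to 0.33 in C57BL/6J and from -2.82 to 0.10 in 129X1/SvJ. The 3 markers that passed had r with Vnn1 over the 20 pools of 0.72 (Svs2), 0.71 (Svs5) and 0.72 (Pate4). Within strains the r were -0.06, -0.04 and -0.12.

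Single pools showed Vnn1 apart from these markers. FVB/NJ pool 2 had a Svs2 value of -6.84 and a Vnn1 value of 0.82. In 129X1/SvJ, pool 2 had a Svs2 value of -1.06, against -7.31 to -5.97 in its other pools, and a Vnn1 value of -3.27. C57BL/6J pool 2 had Svs2 at -1.58 and Vnn1 at -2.62, and pool 1 had Svs2 at -7.63 and Vnn1 at -2.61. Among these pools, which were picked for their contrast, Vnn1 was high in a pool with little Svs2 and low in pools with far more of it. Elsewhere the 2 ran together: all BALB/c pools had Svs2 (1.39 to 2.56) and Vnn1 above the reference, and all DBA/2 pools had both below it. The part of seminal vesicle RNA in the level of Vnn1 was not tested.

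**Figure D3:**
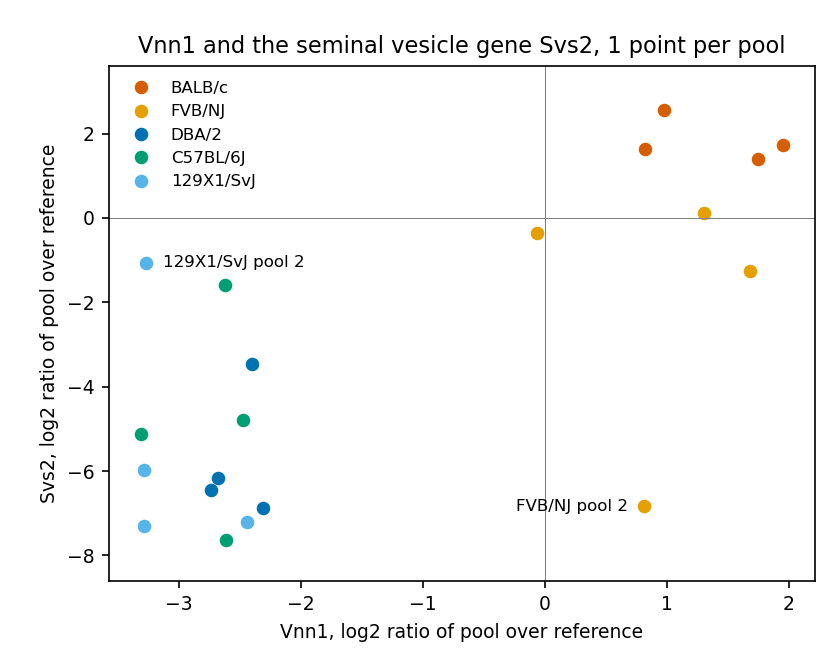
Log2 ratio of the seminal vesicle gene Svs2 against that of Vnn1, pool over common reference, with 1 point for each of the 20 pools coloured by strain. FVB/NJ pool 2 combines a Svs2 value of -6.84 with a Vnn1 value of 0.82, and 129X1/SvJ pool 2 combines -1.06 with -3.27.

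Markers of the tissue's own cells gave no list that parted the strains as Vnn1 did. Of all 54 marker genes measured, seminal vesicle included, 11 passed the strain test, which 12.4% of named genes passed, and in none of them did the BALB/c and FVB/NJ pools lie all above or all below the others. Among luminal epithelium markers 3 of 12 passed (Sbp, Epcam and Tmprss2), among fibroblast and matrix markers 2 of 8 (Col1a1 and Col6a3), and 1 each of 3 leukocyte, 2 adipose and 5 skeletal muscle markers (Lyz2, Fabp4 and Acta1). None of the 2 basal, 7 smooth muscle, 5 endothelium and 3 neuron markers passed. The count of 11 was 20 without 129X1/SvJ pool 4. The mean log2 ratio over the 12 luminal markers ranged over pools from -0.21 to 0.18 in BALB/c, -0.35 to -0.06 in FVB/NJ, -0.32 to 0.02 in DBA/2, -0.10 to 0.09 in C57BL/6J and -0.16 to 0.00 in 129X1/SvJ. These ranges overlapped across the gap of Vnn1. The part of any cell type in the level of Vnn1 was not tested.

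The genes around the pantetheinase reaction mostly did not share the strain differences of Vnn1. Of 95 genes in 5 lists, 28 besides Vnn1 were measured and 5 passed the strain test, where 12.4% of named genes passed. The median span of the 28 was 0.35, against 0.32 for all elements. The lists were chosen with results of these data known.

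Next to the enzyme itself, biotinidase (Btd), a relative of the vanins that releases the vitamin biotin, had strain means between -0.03 and 0.12, a span of 0.15 (adjusted p = 0.979). None of 3 measured genes of coenzyme A metabolism passed. Pank1, the kinase that commits pantothenate to coenzyme A, spanned 0.38, with means of -0.03 in BALB/c, 0.20 in FVB/NJ, 0.10 in DBA/2, -0.18 in C57BL/6J and 0.01 in 129X1/SvJ (adjusted p = 0.837). None of 4 measured genes that handle cysteamine and taurine passed, and 2 of the 4 had an unadjusted p under 0.05. Ado, the oxygenase that turns cysteamine into hypotaurine, had means of 0.13 in BALB/c, 0.17 in FVB/NJ, 0.21 in DBA/2, 0.02 in C57BL/6J and -0.09 in 129X1/SvJ (adjusted p = 0.583).

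Genes that supply cysteine and glutathione differed more, but along other lines. Of 10 measured, 4 passed, where 12.4% of named genes passed. These were Cbs and Cth, the enzymes that make cysteine from homocysteine, Slc7a11, which imports cystine, and Slc1a5, a carrier of glutamine and other neutral amino acids. Cbs was at -0.77, -0.91, -1.32 and -0.99 in BALB/c and at 0.57, 0.55, 0.54 and 0.32 in FVB/NJ. It thus separated the 2 strains that had Vnn1 in common, and its other means were -0.43 in DBA/2, 0.23 in C57BL/6J and 0.39 in 129X1/SvJ. In BALB/c it was lower than the mean of the other 4 strains by -1.17 (SE 0.10), a direction that 1.12% of elements showed at an adjusted p under 0.05, and in FVB/NJ it was higher by 0.70 (SE 0.10), a direction that 1.22% showed. It was also lower in DBA/2, by -0.46 (a direction shown by 0.869% of elements), and higher in 129X1/SvJ, by 0.57 (shown by 2.96%).

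Slc7a11 followed neither side of the gap. It was highest in DBA/2, at 0.93, 0.95, 0.60 and 1.47, and lowest in C57BL/6J, at -1.43, -1.38, -1.24 and -1.62, and 129X1/SvJ, at -2.21, -1.35, -0.77 and -1.21, while BALB/c averaged -0.04 and FVB/NJ 0.19. The 3 strains low in Vnn1 thus held both extremes of Slc7a11. In DBA/2 it was higher than the mean of the other 4 strains by 1.65 (SE 0.18), a direction shown by 1.09% of elements, and in C57BL/6J it was lower by -1.35 (SE 0.18), shown by 1.44%. Slc1a5 spanned 1.12 from its lowest mean in 129X1/SvJ to its highest in C57BL/6J, and Cth 0.41 from FVB/NJ to C57BL/6J. Slc1a5 was low in 129X1/SvJ, at -0.12, -0.75, -0.64 and -0.89, by -0.78 (SE 0.15) from the mean of the others. In C57BL/6J, where its values were 1.22, 0.43, 0.21 and 0.24, it was 0.62 (SE 0.15) above the mean of the others, in a direction shown by 1.77% of elements, and 0.39 above it without pool 1. The strain test of Slc1a5 was no longer passed without the 129X1/SvJ arrays (adjusted p = 0.121). The call of Cth was lost without C57BL/6J pool 1 (adjusted p = 0.104). Gclc, the catalytic subunit of the first enzyme of glutathione synthesis, did not pass (span 0.34, adjusted p = 0.553).

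Of 10 measured PPAR receptors and PPAR alpha targets, 1 passed, Acaa2, a thiolase of mitochondrial fatty acid oxidation, at an adjusted p of 0.099. Its means were 0.19 in BALB/c, -0.16 in FVB/NJ, -0.14 in DBA/2, 0.18 in C57BL/6J and -0.14 in 129X1/SvJ, so it did not part the strains as Vnn1 did, and its call was lost without any of 15 of the 20 pools (adjusted p up to 0.184). Hadhb, a subunit of the trifunctional protein of the same pathway, was the 1 member whose BALB/c and FVB/NJ pools all lay above the others, as for 0.0717% of all elements. Its log2 ratios were 0.17, 0.09, 0.19 and 0.22 in BALB/c and 0.23, 0.11, 0.09 and 0.09 in FVB/NJ, against -0.49 to 0.07 in the 12 other pools. Its span was 0.28, or 1.22-fold, and it did not pass the strain test (adjusted p = 0.233). It did pass in 4 alternative runs, among them that without 129X1/SvJ pool 4 (adjusted p = 0.0964), and not in 29. The lowest adjusted p of this test over the runs was 0.067.

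**Figure D4:**
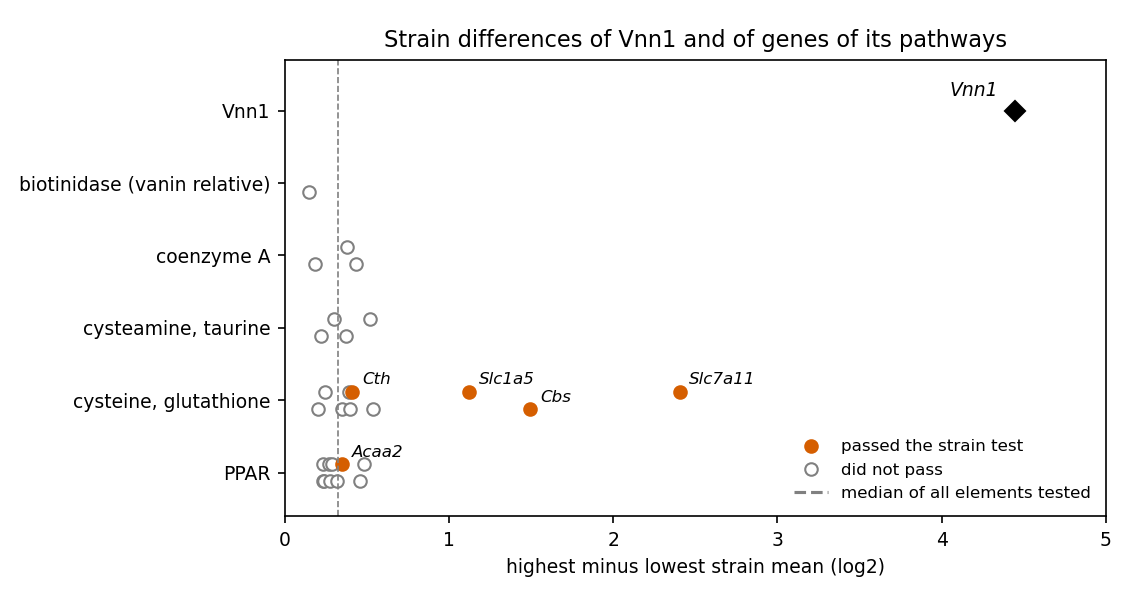
Highest minus lowest strain mean, on the log2 scale, of Vnn1 (diamond) and of the 28 measured genes of its pathways in 5 lists, with filled points for the 5 genes that passed the strain test and open points for the others. The dashed line is the median of all elements tested, 0.32. Vnn1 is at 4.45 and Slc7a11, the widest of the 28, at 2.40.

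Genes beside Vnn1 on chromosome 10 were compared in their order along the chromosome. The nearest 3 genes of the reference table on each side, Vnn3, Slc18b1, Taar1, Taar2 and Taar3 among them, were not measured here. Of the 10 measured genes next on each side, 3 of 20 passed the strain test (Arfgef3, Moxd1 and Tpd52l1), a share close to the 12.4% of all named genes, and the median span was 0.38. Stx7 and Tbpl1, the closest measured ones, did not pass (adjusted p = 0.823 and 0.89). For none of the 20 were the pools parted as for Vnn1.

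Among the 3 neighbours that passed, none was high in BALB/c and FVB/NJ together. Moxd1, a monooxygenase-like protein and the second measured gene on one side, was 0.30, 0.21, 0.31 and 0.39 in FVB/NJ and -0.83, -0.46, -0.36 and -0.35 in C57BL/6J, while BALB/c averaged -0.12. Tpd52l1, of the tumour protein D52 family, was highest in BALB/c, at 0.46, 0.37, 0.35 and 0.51, and lowest in FVB/NJ, at -0.96, -0.93, -0.76 and -0.60. In FVB/NJ its difference from the mean of the others was -0.98 (SE 0.16), a direction that 1.34% of elements showed. Arfgef3, related to the exchange factors of ARF proteins, was low in 129X1/SvJ, with a difference from the mean of the others of -0.60 (SE 0.09), in a direction that 2.74% of elements showed. Without the 129X1/SvJ arrays Arfgef3 no longer passed (adjusted p = 0.292).

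**Figure D5:**
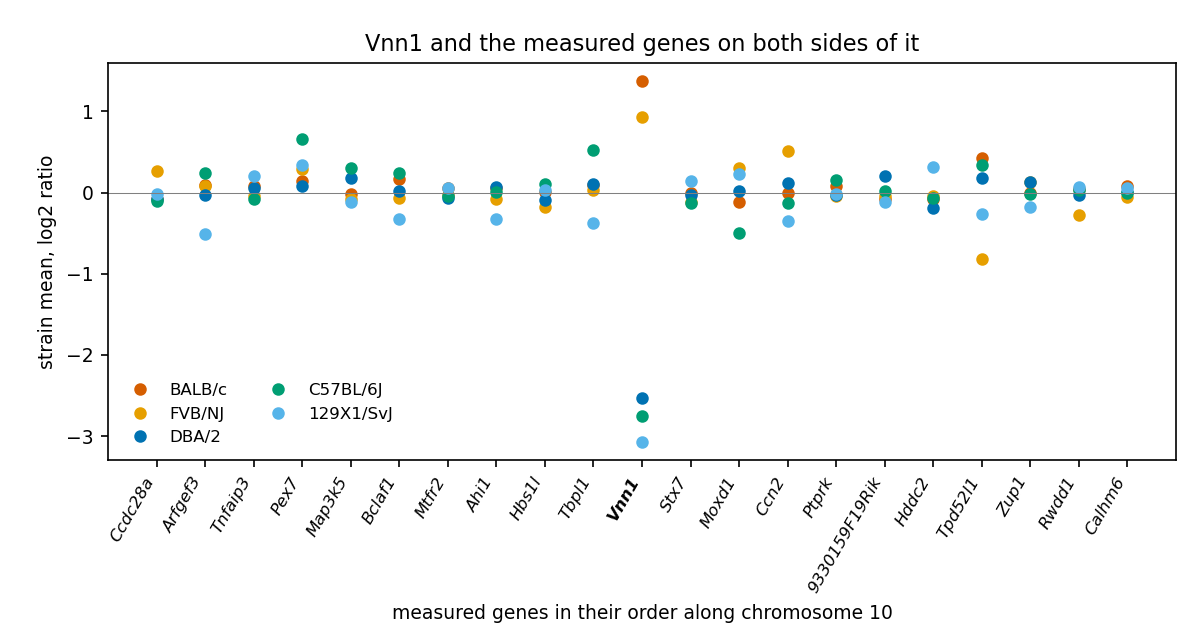
Strain means of the log2 ratio, pool over common reference, for Vnn1 and the 10 measured genes on each side of it, in their order along chromosome 10 and coloured by strain (4 pools each). The means of Vnn1 lie between -3.07 and 1.37, and those of the 20 neighbours between -0.81 and 0.66.

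The elements next to Vnn1 by number did not repeat its pattern. Whether they lay beside it on the slide was not tested. The 2 nearest had r with Vnn1 of 0.38 (an element with no single symbol) and 0.47 (Cbr1), with spans of 0.21 and 0.56, and neither passed the strain test. Cyp2b10, a cytochrome P450 element 2 numbers away, did pass with a span of 2.89, and had r = 0.24 with Vnn1.

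Over the series, arrays held 10998 to 11251 values with medians between -0.01 and 0.02. Values spread most on the 129X1/SvJ arrays, whose median absolute deviation was 0.20 to 0.29, against 0.11 to 0.20 in the other strains, and 129X1/SvJ pool 4 had the widest. Between arrays of one strain and one dye the correlation over elements had a median of 0.46, and between arrays of one strain and different dyes it was 0.23.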

How the data were processed

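Log2 ratios were deposited by the authors in 1 table, which was the only file used. Per the methods, arrays were scanned and quantified with GenePix instruments and software, median background was subtracted from median foreground, weak spots were removed, and ratios of sample over reference were normalized by print-tip loess. Because weak spots and background were treated before deposit, and 2.89% of values are missing, ratios far below the reference are less certain. The direction was checked on Vnn1: over the 20 pools the linear ratio averaged 1.06 (a reference that is an equal mixture gives an average near 1), and its inverse averaged 4.47. The platform annotation gave 1 gene symbol for 8050 elements, several for 672 and none for 2830, and 7880 gene IDs were found in the RefSeq gene table (GRCm38.p6), which changed 0 symbols. Start coordinates were used only to order the genes of chromosome 10, and sequences were not used here.

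Elements with more than 3 missing values, or with fewer than 2 values in any strain, were left out (393), leaving 11159. Each gene was represented by its element with the fewest missing values. limma 3.58.1 in R 4.3.3 was fitted to all 20 arrays. The strain test was a moderated F test over the 5 strains, passed where the adjusted p did not exceed 0.1, standing for the study's multiclass test. Each strain against the mean of the other 4, the dye difference and its interaction with strain used an adjusted p under 0.05. Benjamini-Hochberg adjustment ran over all elements tested. The fits were tested on simulated data. Alternatives changed the filter, centring, scaling, normalization, dye term, pool block, choice of element and spread, left out each pool, and, chosen after seeing the data, used 1 dye or left out 129X1/SvJ.

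Named genes were all Vnn1 elements, the pathway genes and neighbours that passed, 5 pathway genes by role (Btd, Pank1, Ado, Gclc and Hadhb), and the 10 genes most like and unlike Vnn1 over pools and the 5 within strains. Genes with separated pools and the genes next by element number were named after their values were seen. Vnn1, the lists and the tests were chosen with earlier results of these data known. Pools are separate mice. The number of arrays, 4 per strain, limits the precision.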

Additional observations from a re-analysis of the deposited data

Results flagged for a closer look

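In groups of 4 pools, a single pool was marked where its gap to the nearest of the others exceeded Dixon's critical value. Of 235 groups tested, 5 strains for each of 47 genes named here or set beside Vnn1, 12 (5.11%) were marked, where chance marks about 1 in 20.

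Vnn1 itself was marked once, in 129X1/SvJ, where pool 4 had a log2 ratio of -2.44 and the other 3 pools lay between -3.29 and -3.27. In the same strain, Tpd52l1 was at -1.17 in pool 4, Pate4 at -0.84 in pool 2 and Tshz2 at -0.88 in pool 2. FVB/NJ pool 2 was marked for Svs5, at -4.89, for Pop4, at -0.42, and for Nsmce3, at -0.16. In FVB/NJ, Hadhb was also marked at 0.23 in pool 1 and Cbs at 0.32 in pool 4. The remaining marks were Nsmce3 at -0.20 in C57BL/6J pool 1, Srpx at 1.03 in DBA/2 pool 1 and Ncoa4 at -0.11 in DBA/2 pool 2. The mark of Vnn1 left the order of its strains as it was: without pool 4, the 129X1/SvJ mean was -3.28.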

How the results depend on the processing

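In strain means of Vnn1, BALB/c and FVB/NJ stayed above the other strains under every alternative run. Leaving out 1 pool or using 1 dye could not have changed this, since the closest pools were 2.24 apart. Changes of the filter, dye term, pool block, choice of element or spread could not either. Vnn1 had 1 element with a value on every array, and these runs left its strain means as they were. Leaving out 1 pool at a time, the span of the strain means was 4.25 to 4.65, the gap between the lower of the BALB/c and FVB/NJ means and the highest other mean was 3.21 to 3.80, and the dye difference was -0.17 to 0.058, turning sign without FVB/NJ pool 3 or pool 4. The same runs gave 1024 to 1735 elements, 4 to 7 pathway genes, 3 to 4 neighbours and 9 to 20 marker genes passing the strain test. Scaling the arrays to one spread moved the span to 3.71, DBA/2 to -3.11 and 129X1/SvJ to -2.18, with 9 pathway genes and 18 markers passing. Quantile normalization moved the span to 3.57 and 129X1/SvJ to -1.92, with 8 pathway genes and 19 markers, and gave a dye difference of -0.66 (adjusted p = 0.0986). A dye term gave 17 markers, and leaving out the 129X1/SvJ arrays gave 17. With Cy3 arrays alone, FVB/NJ was at 1.49, the gap was 4.03, and 807 elements and 3 pathway genes passed. With Cy5 arrays alone, FVB/NJ was at 0.38, the gap was 2.87, and 303 elements, 2 pathway genes, 0 neighbours and 5 markers passed. Each dye alone has 10 of the 20 arrays. The cause of the other changes was not tested.

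Of the 10 genes most like Vnn1, 4 remained by Spearman correlation, 4 by strain means, 4 in Cy3 pools and 6 in Cy5 pools. Of the 10 most unlike, 5 remained by strain means and 5 in Cy5 pools.

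Pool numbers were not taken as pairs, since each pool holds different mice and the labels tie no number to a shared batch. With the number as a replicate block, the dye difference of Vnn1 was 0.11 (adjusted p = 0.802), and 1431 elements, 6 pathway genes, 3 neighbours and 13 markers passed. In deviations from their strain means, pools of one number in different strains correlated with a median of 0.18, against -0.03 for other numbers. Where dyes were shared the medians were 0.27 for the same number and 0.18 for other numbers. Where dyes differed they were -0.11 and -0.23, so the same number was higher in both, from a cause not tested. In 129X1/SvJ each pool number carried the dye opposite to that in the other strains. All 16 same-number pairs with different dyes thus included 129X1/SvJ, and none of the 24 with a shared dye did. The split by dye therefore did not hold strain fixed. Pool number and dye could be told apart only through 129X1/SvJ, so the dye difference of 0.11 depended on that strain. Same-number correlations ranged from -0.33 to 0.42.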
